A study of Mus musculus with 8 samples.

Results

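Nuclear receptors are transcription factors that bind DNA and, in many cases, a small lipid-soluble ligand. The members described here are 36 receptor genes of this family, chosen by gene symbol. A further 12 nuclear receptor genes that are no members, such as the clock repressor gene Nr1d1, are set beside them after their values. Of the 36 genes, 34 had a probe set carrying their symbol alone, among 22180 genes measured, and Nr1h2 and Nr2e3 had none and were not analysed here. Nr3c2 was read by 2 probe sets, which were averaged, and each of the other 33 genes by 1. RNA came from hearts of 4 female and 4 male mice, all heterozygous for Pcyt2 (Pcyt2+/-) and 8 months old, labelled as myocardium and as biological replicates. Pcyt2 encodes an enzyme of phosphatidylethanolamine synthesis. Every heart carries the Pcyt2+/- genotype, so the comparison is females with males and says nothing of the mutation. The strain is not given in the sources used here. Hearts were taken 3 to 4 hours after lights on, and 100 ng of total RNA was labelled with biotin for a short-oligonucleotide expression array.

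In the absence of ligand, thyroid hormone, retinoic acid and related receptors sit on their response elements with corepressors, and ligand exchanges these for coactivators. Many of them bind as pairs with a retinoid X receptor (RXR) to repeats of a common hexamer, whereas the steroid receptors bind as pairs of their own kind. In heart, thyroid hormone receptors control myosin and calcium pump genes, estrogen related receptors control mitochondrial genes, and the NR4A genes are induced within minutes of stress or adrenergic signals.

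The promoter of Rora is shown because Rora had the largest sex difference of the members. Those of Thrb, the member that varied most between hearts of a sex, and of Rxra, the common partner, are shown for a window that holds the hexamer that these receptors read. The sequences are from RefSeq (GRCm38.p6), run 5′ to 3′ from 250 bases before to 50 bases after an annotated start on the plus strand, and capitals mark AGGTCA or, for the other strand, TGACCT.
Rora, chr9:68653536-68653835: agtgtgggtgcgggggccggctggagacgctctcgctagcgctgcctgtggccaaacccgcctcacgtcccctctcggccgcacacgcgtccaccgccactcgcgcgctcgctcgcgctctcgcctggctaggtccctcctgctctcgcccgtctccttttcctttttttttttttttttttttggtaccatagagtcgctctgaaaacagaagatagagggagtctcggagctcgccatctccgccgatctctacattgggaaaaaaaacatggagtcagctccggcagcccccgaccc
Thrb, chr14:17660710-17661009: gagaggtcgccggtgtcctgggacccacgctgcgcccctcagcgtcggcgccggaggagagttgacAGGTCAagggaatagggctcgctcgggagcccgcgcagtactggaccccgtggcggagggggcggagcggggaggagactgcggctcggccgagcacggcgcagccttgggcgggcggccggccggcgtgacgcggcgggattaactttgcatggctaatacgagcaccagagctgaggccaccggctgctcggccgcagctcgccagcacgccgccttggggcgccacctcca
Rxra, chr2:27709042-27709341: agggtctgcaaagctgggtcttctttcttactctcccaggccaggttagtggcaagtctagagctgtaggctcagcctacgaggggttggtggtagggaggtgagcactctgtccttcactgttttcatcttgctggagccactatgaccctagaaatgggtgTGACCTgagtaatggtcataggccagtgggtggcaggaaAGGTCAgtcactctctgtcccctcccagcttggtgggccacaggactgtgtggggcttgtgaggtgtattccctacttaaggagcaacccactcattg
The Rora window, the only one of that gene in the table, has no match. The Thrb window has AGGTCA from base -184, and the Rxra window has TGACCT from base -87 and AGGTCA from base -48. Thrb and Rxra each have 1 other window in the table, with no match. Promoter windows were found for 31 of the 34 members, 52 windows in all, and 10 of these windows (19.2%) held the hexamer on either strand, against 16.3% of the 32851 windows of the whole table. Counted by gene, 9 of 31 members (29.0%) had a match in at least 1 window, against 18.1% of 27025 genes. These 9 were Nr1h4, Nr5a2, Nr6a1, Pparg, Rara, Rarg, Rxra, Rxrg and Thrb. The share by gene also depends on the number of windows per gene. That was 52 windows for 31 members, against 32851 windows for 27025 genes. A match is a string of letters and no evidence of binding.

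The deposited values are log values, taken as log2, relative to the median of each probe set over the 8 arrays, so a value of 0 is that gene's middle heart and no absolute level is known. For that reason receptors cannot be ranked by abundance, genes silent in heart cannot be told from expressed ones, and the tissue label could not be checked by the level of heart genes. Xist was higher on every female array than on every male array and Kdm5d, Uty and Eif2s3y were lower, so the 8 arrays match their sex labels. The targeted gene Pcyt2 had a difference of -0.054 ± 0.10 (SE). Differences are females minus males throughout.

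No receptor gene passed the test between females and males adjusted over all genes. By limma, 0 of 34 passed an adjusted p of 0.05, against 7 of 22180 genes (0.0316%), and the lowest adjusted p among the members was 0.485. All 34 are autosomal, and 0 of the 21062 autosomal genes passed when these were fitted alone. At an unadjusted p under 0.05 there were 3 members, Rora, Rorb and Esr1, or 8.82%, against 6.96% of all genes. Female and male values did not overlap in 2 members, Rora and Esr1, or 5.88%, against 3.74% of all genes. In both the females lay above, as in 1.89% of all genes, and 0 members had all females below all males, against 1.85%. These shares are close to those of the whole table. Means were higher in females in 14 members and higher in males in 20, against 49.6% of all genes higher in females. The median difference of the members was -0.012, against -5.8e-04 over all genes, and the median size of a difference was 0.037, against 0.038.

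The intervals put a limit on what could have been missed. The 95% interval of the difference lay inside a 1.25-fold change in either direction in all 34 members, against 94.7% of all genes. These are single-gene intervals, not adjusted for their number, and hold on the scale of the array. The differences ran from -0.17 for Rorb to 0.17 for Rora, with a median standard error of 0.051. In bulk hearts, fewer cells of a type and less RNA per cell cannot be told apart.

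**Figure D1:**
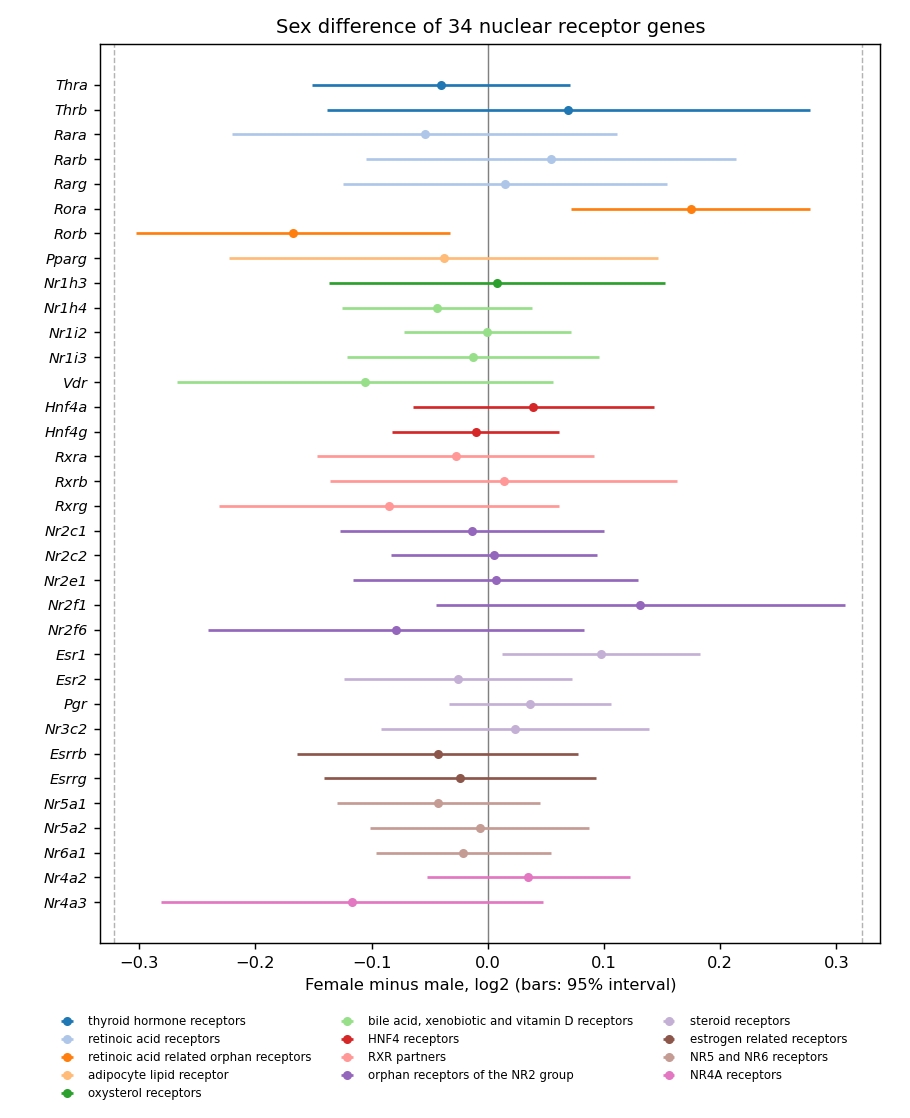
Difference between females and males on the log2 scale (horizontal axis) for the 34 receptor genes, coloured by class, with 95% intervals as bars. Broken lines mark a 1.25-fold change in either direction, and every interval lies between them. The intervals of Rora, Rorb and Esr1 alone leave out 0.

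Rora and Rorb encode the retinoic acid related orphan receptors, which bind as single proteins and, in the case of Rora, drive Bmal1 (Arntl) in the clock. Rora had log2 values of 0.096, 0.073, 0.10 and 0.015 in females, against -0.015, -0.084, -0.21 and -0.098 in males. Every female heart lay above every male heart, though female 4 and male 1 were only just apart. The difference was 0.17 ± 0.045 (SE), or 1.13-fold, with an unadjusted p of 0.00392 and an adjusted p of 0.485 by limma. Without any single heart it stayed between 0.14 and 0.20.

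Rorb, a receptor known from retina and brain, had values of -0.050, -0.16, -0.041 and 0.027 in females, against 0.20, 0.19, -0.027 and 0.080 in males. Males 1 and 2 were the highest hearts and male 3 lay among the females. The difference was -0.17 ± 0.060 (SE), or 1.12-fold, with an unadjusted p of 0.0205 and an adjusted p of 0.633 by limma. Without female 2, male 1 or male 2 the unadjusted p was 0.0591, 0.0586 and 0.0583. Males 1 and 2, with female 1, were also the 3 hearts with the highest Myh4, a fast skeletal myosin gene, with values of 1.57 and 2.23 in these males and 1.03 in that female. Without those 3 hearts the Rorb difference was -0.084 (unadjusted p = 0.273 by limma) and that of Rora was 0.22 (unadjusted p = 0.0076). This fit was chosen after seeing the data and kept males 3 and 4 as its only males. Because males 1 and 2 were the highest hearts for Rorb, a smaller Rorb difference followed from the hearts removed. With the mean of the fast skeletal muscle markers as a covariate and all 8 hearts kept, the Rorb difference was -0.14 ± 0.059 (SE, unadjusted p = 0.0485) and that of Rora 0.20 ± 0.043 (SE, unadjusted p = 0.0016).

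Genes known to carry elements for these receptors were read in a list made after their values were seen. Of 8 measured, 5 had higher means in females, with a median difference of 0.054, 0 passing the adjusted threshold and 1 at an unadjusted p under 0.05. That gene was Arntl, at -0.075 ± 0.074 in females and 0.12 ± 0.14 in males (SD, n = 4 each), a difference of -0.20 with an adjusted p of 0.633 by limma. The largest difference of the list was that of the clock repressor gene Nr1d1, at -0.27 ± 0.25 (SE; adjusted p = 0.902). Both differences are opposite in sign to that of Rora. The other repressor genes Cry1 and Nfil3 had differences of 0.095 and 0.13, Npas2 and Clock 0.029 and -0.032, and the metabolic genes Elovl3 and Cyp7b1 0.079 and 0.088.

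**Figure D2:**
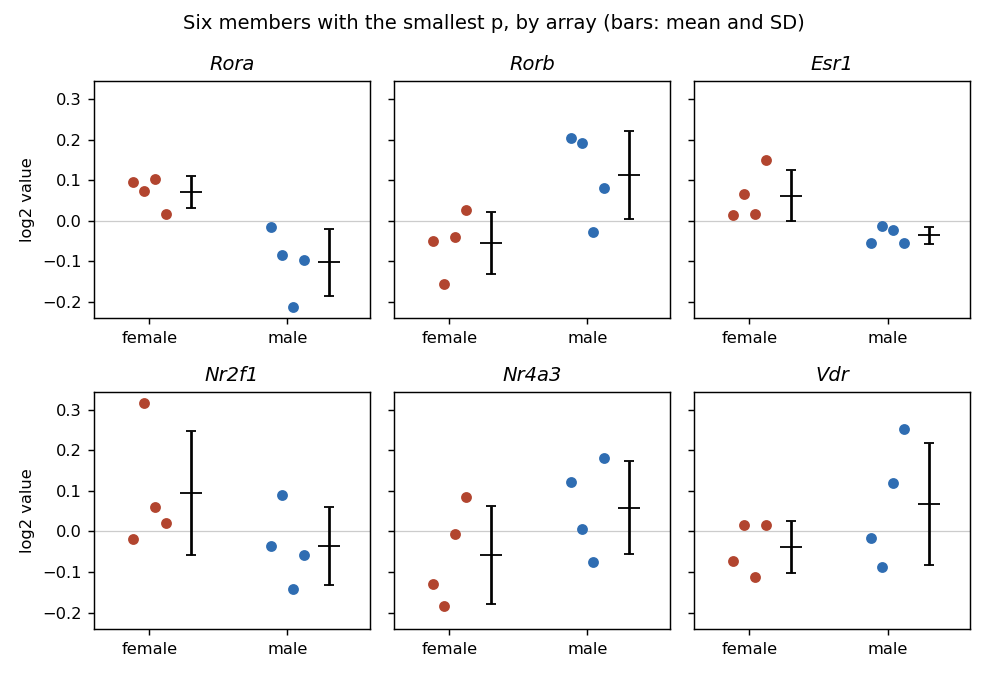
Log2 values by heart for the 6 members with the smallest p, with females left and males right. Points are single hearts, and bars give the mean and SD of 4 hearts beside them. Female and male points are separate for Rora and Esr1 and overlap for Rorb, Nr2f1, Nr4a3 and Vdr.

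Among the steroid receptors, the estrogen receptor gene Esr1 had the only unadjusted p under 0.05. Its values were 0.014, 0.065, 0.017 and 0.15 in females, against -0.054, -0.014, -0.022 and -0.056 in males. The sexes did not overlap, and female 4 stood highest. The difference was 0.098 ± 0.038 (SE), or 1.07-fold, with an unadjusted p of 0.029 and an adjusted p of 0.662 by limma. Without female 4 it was 0.068, and without female 2, female 4, male 1 or male 4 the unadjusted p lay between 0.0561 and 0.0713. With the mean of the adipocyte markers as a covariate the Esr1 difference was 0.058 ± 0.040 (SE, unadjusted p = 0.184), that of Rorb -0.13 ± 0.072 (SE, unadjusted p = 0.102) and that of Rora 0.23 ± 0.043 (SE, unadjusted p = 6.1e-04).

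Esr2, the second estrogen receptor gene, had values of 0.032, -0.078, 0.014 and -0.020 in females and -0.070, -0.014, 0.093 and 0.042 in males, with a difference of -0.026 ± 0.043 (SE). The progesterone receptor gene Pgr had 0.037, 0.020, -0.012 and 0.012 in females and 0.025, -0.058, -0.023 and -0.032 in males. Both pairs of groups overlapped, and in Pgr male 1 was the only male above 0. The Pgr difference was 0.036 ± 0.031 (SE). Nr3c2, the mineralocorticoid receptor gene, had a difference of 0.023 ± 0.051 (SE), and its 2 probe sets gave -0.016 and 0.062. The probe sets thus had opposite signs, neither past the threshold.

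Known targets of these receptors were read beside them. Of 12 measured estrogen and progesterone targets, 5 had higher means in females and the median difference was -0.0052. None passed the adjusted threshold, and 1 had an unadjusted p under 0.05, the cyclin gene Ccnd1 at -0.12 ± 0.048 (SE). The mucin gene Muc1 had -0.071 ± 0.036 (SE). Of 13 mineralocorticoid targets, 6 had higher means in females with a median of -0.014 and 0 past the adjusted threshold. Tsc22d3, which encodes the leucine zipper protein GILZ, was the one at an unadjusted p under 0.05, with a difference of 0.16 ± 0.069 (SE), and the small G protein gene Rasd1 had 0.12 ± 0.058 (SE).

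The thyroid hormone receptor genes had differences of opposite sign, both within the spread. Thra, the main form in heart muscle, had values of 0.0068, 0.059, -0.069 and -0.084 in females and -0.078, -0.0068, 0.068 and 0.091 in males, a difference of -0.040 ± 0.049 (SE). Thrb had -0.10, 0.16, 0.12 and -0.076 in females and -0.27, 0.075, 0.095 and -0.075 in males, a difference of 0.069 ± 0.092 (SE). In Thrb, replicates 2 and 3 of each sex were high and replicates 1 and 4 low, with male 1 the lowest. The adjusted p was 0.937 for Thra and 0.949 for Thrb by limma. Of 14 measured genes that respond to thyroid hormone, 9 had higher means in females, with a median difference of 0.023, 0 past the adjusted threshold and 2 at an unadjusted p under 0.05. These were the potassium channel gene Kcna5, at 0.12 ± 0.056 in females and -0.064 ± 0.025 in males (SD, n = 4 each; limma adjusted p = 0.291), and the transcription factor gene Klf9, at 0.036 ± 0.036 in females and -0.16 ± 0.16 in males (SD, n = 4 each; adjusted p = 0.633).

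The retinoic acid receptor genes also overlapped between the sexes. Rara had values of -0.17, -0.075, -0.035 and 0.16 in females and 0.050, 0.035, -0.11 and 0.12 in males (difference -0.055 ± 0.073, SE). Rarb, itself a classical target of retinoic acid, had -0.017, 0.10, 0.076 and 0.017 in females and -0.14, -0.039, -0.067 and 0.21 in males (0.054 ± 0.071, SE). In Rarb male 4 was the highest heart and the other males were the lowest. Rarg had 0.027, 0.11, -0.0021 and -0.18 in females and 0.041, 0.0021, -0.094 and -0.049 in males (0.014 ± 0.062, SE). Of 15 measured genes of retinoid response and handling, 8 had higher means in females, with a median of 0.0084, 0 past the adjusted threshold and 1 at an unadjusted p under 0.05. That gene was Aldh1a1, a retinaldehyde dehydrogenase gene, at -0.14 ± 0.17 in females and 0.12 ± 0.19 in males (SD, n = 4 each). The retinol carrier gene Rbp4 had a difference of 0.19 ± 0.10 (SE).

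The RXR genes, which supply the common partner, gave small differences. Rxra had values of 0.055, -0.071, -0.032 and 0.082 in females and -0.013, 0.013, 0.16 and -0.019 in males (difference -0.028 ± 0.053, SE). Rxrb had -0.019, -0.058, 0.019 and 0.080 in females and 0.16, -0.17, 0.019 and -0.038 in males (0.014 ± 0.066, SE). Rxrg, the form known from skeletal and heart muscle, had 0.12, -0.082, -0.16 and -7.8e-04 in females and 7.8e-04, -0.020, 0.17 and 0.068 in males (-0.085 ± 0.065, SE). Male 3 was the highest heart for both Rxra and Rxrg, and the sexes overlapped in all 3 genes.

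Of the lipid receptors, Pparg, which drives adipocyte formation, had values between -0.097 and 0.26 in females and between -0.060 and 0.14 in males, a difference of -0.038 ± 0.082 (SE). Female 3 was the highest heart. Nr1h3, the oxysterol receptor LXR alpha, had values between -0.030 and 0.043 in females and between -0.14 and 0.19 in males (0.0076 ± 0.064, SE). Targets of Pparg in fat tissue had higher means in females in 10 of 16 measured, with a median of 0.052. Of these targets 0 passed the adjusted threshold and 5 had an unadjusted p under 0.05, against 6.96% of all genes. Differences were 0.46 ± 0.14 (SE) for Retn, which encodes the adipokine resistin, and -0.28 ± 0.10 (SE) for Angptl4, an inhibitor of lipoprotein lipase. Of 14 measured oxysterol receptor targets, 8 had higher means in females, with a median of 0.012, 0 past the adjusted threshold and 2 at an unadjusted p under 0.05. These were the lipogenic genes Scd1, at 1.36 ± 0.38 (SE), and Fasn, at 0.75 ± 0.22 (SE), with adjusted p of 0.518 and 0.542 by limma.

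All 4 receptor genes of bile acids, xenobiotics and vitamin D had lower means in females, with 0 inside every interval. Vdr, the vitamin D receptor gene, had -0.074, 0.015, -0.11 and 0.017 in females and -0.015, -0.088, 0.12 and 0.25 in males (difference -0.11 ± 0.072, SE; limma adjusted p = 0.831). Males 3 and 4 were the highest hearts. Without male 4 the Vdr difference was -0.044 (unadjusted p = 0.472), and without male 2 it was -0.16 (unadjusted p = 0.0449). It was -0.16 with the fast skeletal muscle markers as a covariate (unadjusted p = 0.0175) and -0.21 without the 3 hearts with the highest Myh4 (unadjusted p = 0.0175), at adjusted p of 0.531 and 0.587 by limma. The second of these fits, chosen after seeing the data, kept males 3 and 4 as its only males. A larger Vdr difference thus followed from the hearts removed. Nr1h4, the bile acid receptor FXR, had -0.055, 0.036, -0.035 and -8.3e-04 in females and -0.0071, 0.033, 8.3e-04 and 0.095 in males (-0.044 ± 0.036, SE). Nr1i3 and Nr1i2, the xenobiotic receptors CAR and PXR, had differences of -0.013 ± 0.048 and -6.4e-04 ± 0.032 (SE). The liver receptor genes Hnf4a and Hnf4g had 0.039 ± 0.046 and -0.010 ± 0.032 (SE). Targets of the liver receptors had higher means in females in 10 of 15 measured, with a median of 0.0094 and 0 at an adjusted or an unadjusted p under 0.05. The lipoprotein gene Apob had 0.099 ± 0.045 (SE) and the bile acid transporter gene Slc51a 0.042 ± 0.041 (SE). Of 10 vitamin D targets 5 had higher means in females, with a median of -0.0012 and 0 at either threshold, led by the calcium pump gene Atp2b1 at -0.046 and the calcium-binding gene Calb1 at 0.034.

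In the orphan receptors of the NR2 group, Nr2f1 (COUP-TFI), which marks atrial muscle in the human heart, had the largest difference. Its values were -0.020, 0.32, 0.059 and 0.020 in females and -0.037, 0.090, -0.14 and -0.059 in males, a difference of 0.13 ± 0.078 (SE; limma adjusted p = 0.793). Female 2 alone stood well above the rest, and without it the difference was 0.057 (unadjusted p = 0.341). Nr2f6 had a difference of -0.079 ± 0.072 (SE), with female 1 at -0.25 and male 2 at -0.17 as its lowest hearts. The testicular receptor genes Nr2c1 and Nr2c2 had -0.014 ± 0.050 and 0.0054 ± 0.039 (SE), and Nr2e1, a receptor of neural stem cells, had 0.0067 ± 0.054 (SE).

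The estrogen related receptor genes Esrrb and Esrrg, the second a regulator of mitochondrial genes in heart, had differences of -0.043 ± 0.053 and -0.024 ± 0.052 (SE). Of 14 measured targets of this class, 6 had higher means in females, with a median of -0.0062 and 0 at an adjusted or an unadjusted p under 0.05. The dehydrogenase genes Acadm and Sdhb had -0.077 ± 0.037 and 0.062 ± 0.040 (SE). Nr5a1 (SF-1), the receptor of steroid-producing tissue, had -0.0015, 0.0015, -0.052 and -0.018 in females and 0.032, 0.076, 0.061 and -0.069 in males (-0.043 ± 0.039, SE). Male 4 was lowest and the other males were highest. Nr5a2 and the germ cell receptor gene Nr6a1 had -0.0069 ± 0.042 and -0.021 ± 0.033 (SE). The 11 measured steroid synthesis genes that Nr5a1 or Nr5a2 control had a median of -0.011 with 5 higher in females and 0 at either threshold, led by Star at 0.085 and Cyp11b1 at -0.055.

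The NR4A genes are induced without a known ligand, as immediate early genes. Nr4a2 had values of 0.079, -0.0045, 0.072 and 0.0045 in females and -0.013, -0.047, 0.080 and -0.0077 in males, a difference of 0.035 ± 0.039 (SE). Nr4a3 had -0.13, -0.18, -0.0064 and 0.085 in females and 0.12, 0.0064, -0.075 and 0.18 in males, a difference of -0.12 ± 0.073 (SE; limma adjusted p = 0.806). Females 1 and 2 were the lowest hearts for Nr4a3, and male 4 was the highest. Nr4a1, which is no member, had a difference of -0.18 ± 0.12 (SE), and of 16 other immediate early genes 4 had higher means in females, with a median of -0.024. None of these 16 passed the adjusted threshold and 1 had an unadjusted p under 0.05, the neuronal gene Arc at -0.14 ± 0.039 (SE), while Ier3 had 0.15 ± 0.086 (SE).

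**Figure D3:**
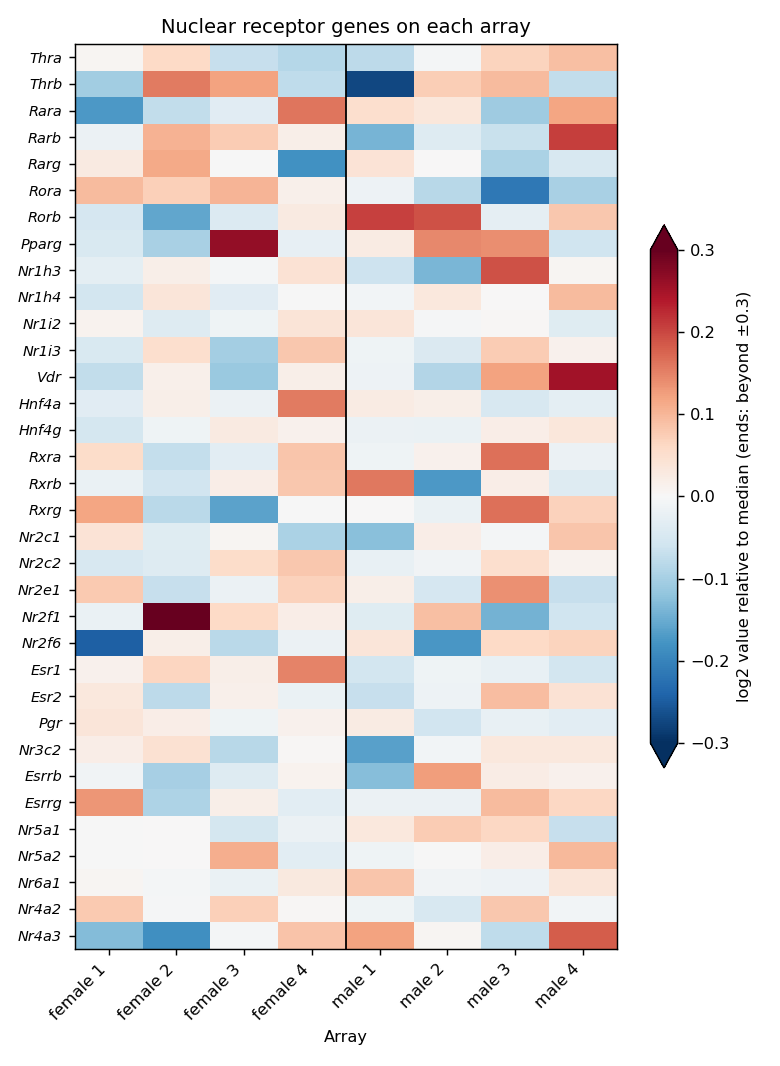
Log2 value relative to the median over 8 arrays for each receptor gene (rows) on each array (columns, 4 females left of the line, 4 males right). Colours end at 0.3 in either direction, which Nr2f1 in female 2 alone passes at 0.32. Row Rora is pale to light red in females and pale to blue in males, and most other rows mix both colours in each sex.

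Of the nuclear receptor genes that are no members, 10 of 12 were measured, with 6 higher in females and 0 at an adjusted or an unadjusted p under 0.05. Their median difference was 0.033. The clock repressor genes Nr1d1 and Nr1d2 had differences of -0.27 ± 0.25 and 0.13 ± 0.061 (SE), and Ppara and Ppard, receptors of fatty acids, -0.033 ± 0.062 and 0.060 ± 0.052 (SE). The glucocorticoid receptor gene Nr3c1 had 0.0052 ± 0.043 (SE). Esrra and Nr2f2 had 0.071 ± 0.072 and 0.081 ± 0.084 (SE), and Nr0b1 and Nr0b2, which lack a DNA-binding domain, -0.034 ± 0.063 and 0.080 ± 0.078 (SE).

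How far hearts of a sex lay apart differed from receptor to receptor. The SD within sexes was lowest for Pgr at 0.029, in the lowest 7.33% of all genes, and for Hnf4g and Nr1i2 at 0.031 and 0.032. It was highest for Thrb at 0.15, at percentile 94.3 of all genes, followed by Pparg at 0.13 and Nr2f1 at 0.13. The median over the members was 0.077, against 0.074 over all genes.

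**Figure D4:**
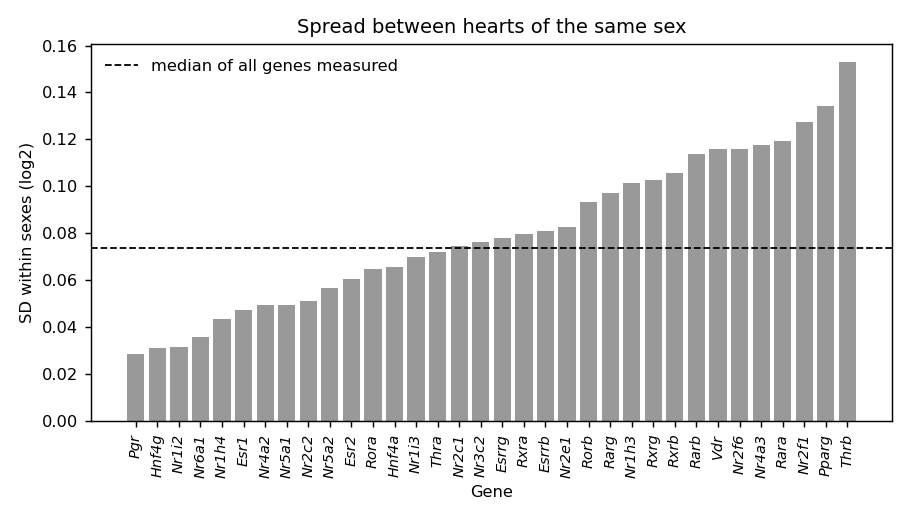
SD within sexes on the log2 scale (vertical axis, from 0) for the 34 receptor genes in rising order, pooled over 4 females and 4 males. The broken line is the median of all genes, 0.074, and Thrb stands highest at 0.15.

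Genes that work with the receptors were also read. Of 14 coactivator genes, 5 had higher means in females, with a median of -0.0088, 0 past the adjusted threshold and 2 at an unadjusted p under 0.05. Ppargc1a, a coactivator of mitochondrial biogenesis, had 0.096 ± 0.079 in females and -0.096 ± 0.058 in males (SD, n = 4 each; limma adjusted p = 0.481). Med1, the Mediator subunit that contacts receptors, had -0.068 ± 0.068 in females and 0.081 ± 0.060 in males (SD, n = 4 each; adjusted p = 0.566). The 2 thus had opposite signs. Of 9 measured corepressor genes, 4 had higher means in females, with a median of -0.0029 and 0 at either threshold, led by Sin3a at -0.084 and the histone deacetylase gene Hdac3 at -0.055. Of 21 measured genes for making, breaking down or carrying ligands, 10 had higher means in females, with a median of -0.017, 0 past the adjusted threshold and 2 at an unadjusted p under 0.05. Hsd11b1, whose enzyme regenerates active glucocorticoid, had -0.087 ± 0.12 in females and 0.24 ± 0.18 in males (SD, n = 4 each), a difference of -0.33 with an adjusted p of 0.504 by limma, and the other was Aldh1a1.

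Markers of other cells and tissues were read as lists. Some of their genes also stand in the target lists above, namely Retn for Pparg, Apob for the liver receptors and Kcna5 for thyroid hormone. These genes are not separate evidence. Adipocyte markers had higher means in females in 9 of 12, with list means from -0.15 to 0.39 in females and from -0.21 to 0.15 in males. Retn and the carbonic anhydrase gene Car3 led them, the second at 0.99 ± 0.36 (SE), and 5 had an unadjusted p under 0.05. Liver markers had higher means in females in 11 of 11, led by Apob and by albumin (Alb) at 1.15 ± 0.57 (SE). Their list means ran from -0.040 to 0.44 in females and from -0.077 to -0.0026 in males. Females 1 and 2 were highest, with list means of 0.20 and 0.44 and Alb at 1.76 and 2.69. Females 3 and 4 had Alb at -0.17 and 0.019. Atrial markers had higher means in females in 9 of 9, with list means from -0.52 to 0.35 in females and from -0.51 to 0.15 in males, led by Kcna5 and by the channel gene Kcnj3 at 0.13 ± 0.080 (SE). Fast skeletal muscle markers had higher means in females in 1 of 12, with list means from -0.19 to 0.28 in females and from -0.18 to 0.72 in males, led by Myh2 at -0.17 and Pvalb at -0.24.

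Fibroblast markers had 5 of 10 higher in females, with a median difference of -0.13. Their list means ran from -0.19 to 0.046 in females and from -0.094 to 0.26 in males. Among them 5 had an unadjusted p under 0.05, led by Dpep1 at -0.34 and Col1a2 at -0.30. Macrophage markers had 8 of 10, led by Fcgr1 at 0.12 and C1qb at 0.069, and endothelial markers 4 of 9 with 3 at an unadjusted p under 0.05, led by Kdr at -0.19 and Cdh5 at -0.11. For the adipocyte, fibroblast and endothelial lists, the counts at an unadjusted p under 0.05 stand against 6.96% of all genes. No gene of these marker lists passed the adjusted threshold, and every list mean overlapped between the sexes. With the adipocyte or the fast skeletal muscle list mean as a covariate, fitted for all 34 members, 0 members passed the adjusted threshold. The other lists were not used as covariates.

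Of the 5 relations examined between a receptor and a list across the 8 hearts, that of Nr2f1 with the atrial markers had the largest r. Pearson's r was 0.69 (exact permutation p = 0.044, adjusted over the 5 relations 0.22) and Spearman's rho 0.67 (exact permutation p = 0.0831, adjusted 0.415), so it did not pass. Without the 2 hearts farthest from the middle of the list r was 0.61, and with the sex means taken out it was 0.69. With the adipocyte markers, Pparg had r of -0.030 (exact permutation p = 0.948) and rho of -0.26 (exact permutation p = 0.536). With the fast skeletal muscle markers, Rxrg had r of -0.054 (exact permutation p = 0.896) and rho of -0.21 (exact permutation p = 0.619). Nr4a3 had r of 0.35 with the other immediate early genes (exact permutation p = 0.388) and rho of 0.31 (exact permutation p = 0.462). Hnf4a had r of 0.11 with the liver markers (exact permutation p = 0.759) and rho of 0.0. For these 4, adjusted p was 0.948 for r and from 0.774 to 1.0 for rho. Without the 2 farthest hearts r was 0.14 for Pparg, 0.13 for Rxrg, 0.38 for Nr4a3 and 0.77 for Hnf4a. For Hnf4a these were females 1 and 2, the hearts with the highest liver markers. With the sex means taken out, r was 0.069 for Pparg, -0.24 for Rxrg, 0.25 for Nr4a3 and -0.13 for Hnf4a.

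**Figure D5:**
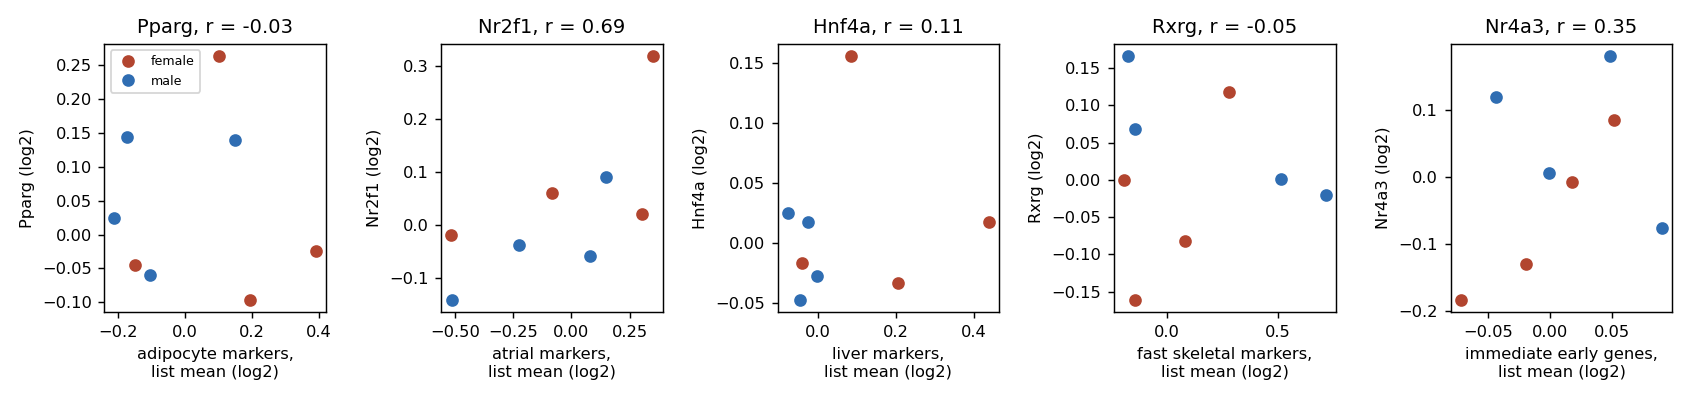
Log2 value of a receptor gene (vertical axis) against the mean of a marker list (horizontal axis) for 8 hearts, females in red and males in blue, with Pearson's r above each panel. Nr2f1 runs higher where atrial markers are higher (r = 0.69, not past the adjusted threshold), and r is near 0 for Pparg and the adipocyte markers.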

How the data were processed

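Hearts of 4 female and 4 male Pcyt2+/- mice were read on 8 arrays. The authors' deposited table holds log2 values of 34351 probe sets, each relative to its median over the arrays, as tested on the file (all 34351 medians are 0 within 1e-06). The log base is taken as 2, and how the authors corrected, normalized and summarized the probes is not given in the sources used here. Array medians lie between -0.0021 and 0.0023, and the number of arrays limits the precision. Probe sets with 1 gene symbol in the platform annotation (23521) were averaged to 22180 genes without a filter. Those with several symbols (1814) or none (9016) were left out.

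Females were compared with males in limma 3.58.1 (R 4.3.3, lmFit and eBayes, code tested on simulated data), with Benjamini-Hochberg adjustment over all genes and a threshold of 0.05. Relations used two-sided exact permutation tests (Python 3.11.15, scipy 1.17.1). Members and lists were chosen with earlier results of these data known, and 1 of the 23 lists, that of Rora targets, was added after its values were seen. Every member is named, as are all measured genes of the lists of other receptors and of Rora targets, and of each other list the 2 genes with the smallest p. Single hearts are given for the 10 members with the smallest p and for the thyroid, retinoic acid, RXR, estrogen and NR4A receptor genes. Myh4, Xist, Pcyt2 and the Y-linked genes serve as checks outside that rule. Protein sequences were not used here, and promoters are shown in their place.

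The fit was repeated with other scaling (quantiles, medians), other handling of multiple probe sets, other variance models or weights, a block for replicate number, a marker covariate (adipocyte or fast skeletal muscle), autosomes alone, an adjusted p of 0.1 and each heart left out. Leaving out the 3 hearts with the highest Myh4, and single hearts in the relations, was chosen after seeing the data.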

Additional observations from a re-analysis of the deposited data

Results flagged for a closer look

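Nr2f6 was the 1 gene among the members with a heart far from the others of its sex. Male 2 had a log2 value of -0.17, against 0.036, 0.059 and 0.067 in the other 3 males, a gap of 0.869 of the whole range of the males. Chance flags about 1 in 20 groups by this measure, and 68 groups (34 genes in 2 sexes) were examined, of which this was the only one. Without male 2 the Nr2f6 difference was -0.14 in place of -0.079.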

How the results depend on the processing

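No member passed the adjusted threshold of 0.05 in any of the 20 alternatives, at a lowest adjusted p of 0.307, and none passed 0.1. The difference kept its sign in every alternative in 14 of 34 members, among them Rora, Rorb, Esr1, Nr2f1, Nr4a3 and Vdr. Rora had an unadjusted p under 0.05 in the fit reported and all 19 alternatives that gave it a value. Its difference there ran from 0.14 to 0.23 and its adjusted p by limma from 0.307 to 0.703. With 1 heart left out, 6.06% to 7.84% of all genes had an unadjusted p under 0.05. Of the members, 3 were under it in the fit reported, 1 without female 2 and 1 without male 1. Their number ranged from 1 to 4 over the 8 hearts left out. The genes were not the same throughout: beside Rora, Nr2f6 was under 0.05 with the adipocyte covariate, Vdr with the fast skeletal muscle covariate and without male 2, Vdr and Rxrg without the 3 hearts with the highest Myh4, Rxrg without female 1, Nr4a3 without female 4 and Rarb without male 4. The 7 genes past the threshold over the whole table became 0 with autosomal genes only and 4 without male 3, with a range of 4 to 7 over the hearts left out.

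With adipocyte markers as a covariate the sign turned, to -0.074 for Nr1h3, -0.0076 for Rxrb, 0.013 for Nr2c1, -0.038 for Nr2c2, -0.020 for Nr2e1, -0.0042 for Nr3c2 and 0.0012 for Esrrg. With fast skeletal muscle markers as a covariate it turned to -0.044 for Nr1h3, 0.0040 for Nr1i2, -0.0038 for Rxrb, -0.017 for Nr2c2 and -0.0065 for Nr2e1. Without the 3 hearts with the highest Myh4 it turned to 0.011 for Rara, -0.0048 for Rarb, 0.0075 for Pparg, -0.079 for Nr1h3, 0.012 for Nr1i2, -0.040 for Nr2e1, -0.043 for Nr3c2 and -0.012 for Nr4a2. One of the probe sets of Nr3c2 gave -0.016. The cause was not tested.

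Leaving out 1 heart at a time turned the sign of genes whose differences then ran from -0.041 to 0.020 for Nr1i3, -0.022 to 0.0049 for Hnf4g, -0.019 to 0.049 for Nr2e1, -0.037 to 0.017 for Nr5a2, -0.027 to 0.071 for Rarg, -0.12 to 0.0024 for Pparg, -0.014 to 0.012 for Nr1i2, -0.066 to 0.0086 for Esrrg, -0.018 to 0.025 for Nr2c2 and -0.038 to 0.071 for Nr1h3. They ran from -0.0027 to 0.060 for Hnf4a, -0.041 to 0.069 for Rxrb, -0.053 to 0.017 for Nr2c1, -0.0069 to 0.12 for Thrb, -0.022 to 0.049 for Nr3c2, -0.052 to 0.015 for Rxra and -0.053 to 9.6e-04 for Esr2. Of the relations, r ran from -0.19 to 0.17 for Pparg, -0.35 to 0.19 for Rxrg, -0.011 to 0.65 for Nr4a3 and 0.58 to 0.78 for Nr2f1 over the hearts left out, and was -0.032 for Hnf4a with the median of the liver list.

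With the replicate number as a block, 0 members passed the adjusted threshold and 3 had an unadjusted p under 0.05, namely Rora, Rorb and Nr2f1. By limma, Nr2f1 then had an unadjusted p of 0.0313, against 0.126 without the block, and Esr1 one of 0.0529. Over all genes, 8 passed with the block and 7.64% had an unadjusted p under 0.05. The labels state no link between same-numbered hearts. The correlation of their deviations from the sex means was 0.137, 0.0972, 0.0062 and 0.0906 for numbers 1 to 4. For females and males of different numbers it ran from -0.130 to 0.0955. Whether same-numbered hearts shared more than a number was not tested. The array scale, with no brightness, limits what can be said of genes near background.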
